A study of Rattus norvegicus with 3 samples.

Results

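The transcripts of the thoracic aorta of rats given allylamine at 35 mg/kg were compared with those of rats given water, across every gene that both arrays could measure. This is 1 of the comparisons that a series of 3 oligonucleotide arrays allows, and it uses 2 of them directly. All animals were Sprague Dawley rats. Dosing lasted 20 days: the control group received water (1 ml/kg), and the others received allylamine, at 35 mg/kg or at 70 mg/kg. Each group had 1 array of total RNA. The sources used here do not say whether that RNA came from 1 animal or several, by which route the doses were given or how old the animals were. With 1 array per group the differences below could not be tested, have no replicate check and carry no p-value.

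The array carries 8799 probe sets, each a group of short oligonucleotides against 1 transcript, and the deposited value of a probe set is an intensity on a linear scale. After 59 control probe sets had been left out, each array was scaled to a common median. A probe set was measured when it lay above a floor on both arrays, the 40th percentile of all scaled values, which was an intensity of 188. Of the 8740 probe sets kept, 7006 carried the symbol of exactly 1 gene. They stood for 4736 genes, and 2606 of these were measured, through 3292 probe sets. A gene's difference is the median over its measured probe sets of log2 intensity at 35 mg/kg minus that in the control, so that 1 is a 2-fold difference. It is always given below as a log2 difference, and a level is always given as a scaled intensity.

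Allylamine is an unsaturated primary amine that injures arteries and heart muscle. In vascular smooth muscle it is oxidised by semicarbazide-sensitive amine oxidase (Aoc3) to acrolein, a reactive aldehyde, with release of hydrogen peroxide and ammonia. Acrolein binds thiols and is cleared mainly by conjugation to glutathione and by aldehyde dehydrogenases and reductases. The wall of the thoracic aorta is built of layers of smooth muscle between elastic sheets, lined by endothelium and surrounded by an adventitia of fibroblasts, collagen, fat, nerves and small vessels. Smooth muscle that is injured or cultured can turn from a contractile to a synthetic state, with fewer contractile proteins and more matrix.

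The tissue label was set against its markers. Of the smooth muscle markers, 6 were on the array and 5 were measured. The smooth muscle actin Acta2 lay at 1613 in the control and 1325 at 35 mg/kg, and the actin-binding protein transgelin (Tagln) at 922 and 483. The intermediate filament gene Des lay above the floor in the control only (370 against 85.5). Of the endothelial markers, 7 of 9 were measured, among them Pecam1 (427 and 436) and thrombomodulin, Thbd (7578 and 5649). Markers of other organs were also measured. Of 10 liver genes, 8 lay above the floor on both arrays, including transthyretin (Ttr, 372 and 586), so a level above the floor does not by itself show that the aorta expresses a gene. The log2 intensities of the control and 35 mg/kg arrays correlated at r = 0.70 over 8740 probe sets, which do not count as replicates. The spike-in probe sets, which measure control transcripts added during preparation, were 2.32 to 4.47 times as bright at 35 mg/kg (9 probe sets, median 3.81). The ratio of 3′ to 5′ signal was 0.376 in the control and 0.542 at 35 mg/kg for actin, and 0.175 and 0.318 for GAPDH. The part of these array differences in the results below was not tested.

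At least 2-fold differences were common and were balanced between the directions. After allylamine at 35 mg/kg, 439 of the 2606 measured genes lay 2-fold or more above the control (16.8%) and 424 lay 2-fold or more below it (16.3%), 33.1% in all. The other 1743 lay within 2-fold. The median difference was 0.04, and the quartiles were -0.67 and 0.70. These shares are the background against which the count of any function is read below. The share past 2-fold was 20.2% in the dimmest 652 genes by mean intensity and between 35.2% and 41.2% in the brighter groups of like size. The floor partly sets the lower share of the dimmest group, whose mean intensities ran from 193 to 403. Both values had to lie above 188, so genes near it could not reach 2-fold. In the brightest 652 genes, 102 were higher and 132 lower.

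**Figure D1:**
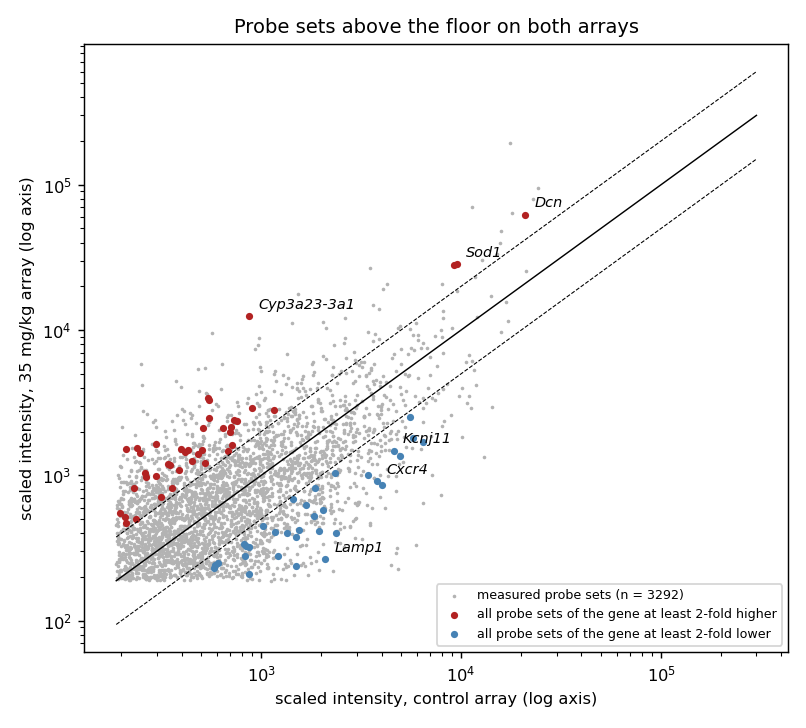
Scaled intensity of the 3292 measured probe sets on the control array (horizontal) and the 35 mg/kg array (vertical), both on log axes. The solid line marks equal values and the dashed lines 2-fold differences. Red and blue points are probe sets of the 20 genes and 15 genes with every one of at least 2 measured probe sets 2-fold or more higher or lower. The points spread about evenly to both sides of the line of equality.

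The only repeat measurement within an array is a second probe set for the same gene, and probe sets of one gene agreed little. Of 562 genes with at least 2 measured probe sets, 280 had probe sets that all pointed one way (49.8%). In 39 genes 1 probe set was at least 2-fold higher and another at least 2-fold lower. Of 832 pairs of probe sets, 454 shared their sign (54.6%). The pooled SD between probe sets of one gene was 1.08, about as large as the SD of the differences over all measured probe sets (1.12). Pairs built from the same sequence accession, which may share probes, had the same sign in 147 of 251 (58.6%), and pairs from different accessions in 307 of 581 (52.8%). Where both probe sets of a pair were past 2-fold, 63 of 105 pairs had the same sign (60.0%). Over all pairs the share with the same sign was 54.0% in the 278 dimmest, 56.5% in the 278 of middle brightness and 53.3% in the 276 brightest. Among pairs with both probe sets past 2-fold it was 7 of 14 in the dimmest, 23 of 41 in the middle and 33 of 50 in the brightest (66.0%). For 2044 of the 2606 measured genes there was only 1 measured probe set, and of the 292 measured genes named here 217 rest on 1. Apart from the 35 genes with every one of at least 2 probe sets past 2-fold, a gene given below with a single difference rests on 1 measured probe set, also where this is not repeated beside it.

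**Figure D2:**
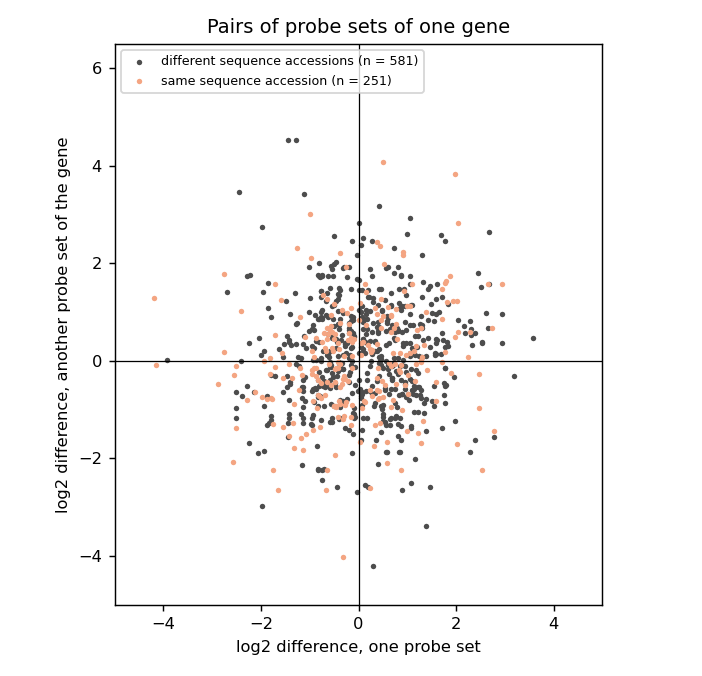
Log2 difference (35 mg/kg minus control) of 2 measured probe sets of the same gene, 1 point per pair, for 581 pairs from different sequence accessions (dark) and 251 pairs from the same accession (light). Pairs that agree in sign lie to the lower left and upper right of the origin, which hold 454 of the 832 points.

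The widest disagreements between probe sets of one gene were several log2 units. The 2 measured probe sets of Gipc1, a scaffold protein of vesicle traffic and receptor signalling, gave opposite answers. One went from 17510 to 193209 (3.46), the brightest value of any probe set named here, while the other went from 3375 to 621 (-2.44). For tropomyosin (Tpm1), which lies along the actin filament, 1 probe set went from 251 to 5821 (4.53) and the other measured probe sets from 5230 to 2152 (-1.28) and from 2395 to 884 (-1.44). For Ivd, a dehydrogenase of leucine breakdown, the 3 probe sets stood at 1.30, 0.31 and -4.20. The sialyltransferase gene St3gal2 ran from -2.25 to 2.54, the muscle cytochrome oxidase subunit Cox6a2 from -1.98 to 2.75, the dopamine receptor Drd3 from -1.13 to 3.42 and Kctd13 from -2.75 to 1.78. The insulin-responsive glucose transporter Slc2a4 stood at -3.38 on 1 probe set and 1.38 on the other. For these genes the arrays give no direction.

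In 20 genes every measured probe set was at least 2-fold higher (3.56% of the 562 genes with at least 2), and in 15 every one was at least 2-fold lower (2.67%). With 1 probe set per sequence accession, the brightest, the counts were 11 and 9.

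**Figure D3:**
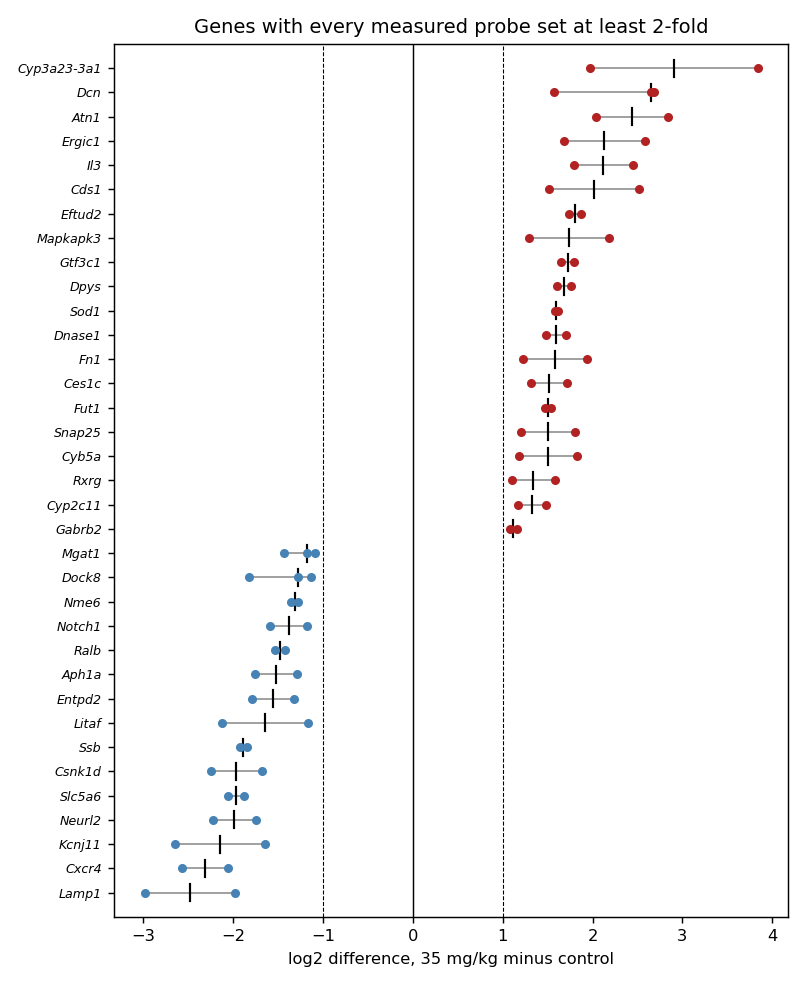
Log2 difference (35 mg/kg minus control) of each measured probe set (points) of the 20 genes with every probe set at least 2-fold higher (red) and the 15 with every probe set at least 2-fold lower (blue). The vertical tick is the gene's median, the grey line joins its lowest and highest probe set, and the dashed lines mark 2-fold. Sod1 has the tightest probe sets of the bright genes and Cyp3a23-3a1 the widest.

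Among the genes higher on every measured probe set, the copper-zinc superoxide dismutase Sod1, the cytosolic enzyme that turns superoxide into hydrogen peroxide, had the closest and among the brightest values. Its probe sets from different accessions went from 9490 to 28325 and from 9169 to 28154 (1.58 and 1.62). A further probe set was dim on both arrays (28.6 and 67.5). Decorin (Dcn), the small proteoglycan that coats collagen fibrils in the adventitia, went from 20940 to 62304, from 545 to 3429 and from 240 to 1541, a median of 2.65. Another Dcn probe set went the other way, from 254 to 147, below the floor. Fibronectin (Fn1), the adhesive glycoprotein of provisional matrix, went from 521 to 1219 and from 396 to 1516 on probe sets of the same accession (1.58). Its other probe sets divided, 1 from 24.7 to 590 and 1 from 360 to 27.0. For Sod1 all that was measurable pointed upward, and for Dcn and Fn1 1 probe set each lay below the floor at 35 mg/kg only.

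The largest median was that of the P450 gene Cyp3a23-3a1, at 2.91, whose probe sets went from 872 to 12486 and from 262 to 1030. Both come from the same accession, and another of its probe sets lay at 1095 in the control and at 173, under the floor, after allylamine. This enzyme is best known from liver, and its near-identical relatives may share the probes. The interleukin gene Il3, a growth factor of blood and mast cell precursors, went from 415 to 1440 and from 299 to 1633 on probe sets of different accessions (2.12). Cds1, an enzyme of phosphoinositide resynthesis, went from 695 to 1983 and from 249 to 1424 (2.02). The cargo protein Ergic1 went from 549 to 3294 and from 900 to 2888 (2.13), and the stress kinase Mapkapk3, a target of p38, from 548 to 2488 and from 1158 to 2838 (1.74). Il3, Cds1, Ergic1 and Mapkapk3 share that their measured probe sets come from separate sequences. Of the rest, the carboxylesterase Ces1c (1.52) and the fucosyltransferase Fut1 (1.51) also had separate sequences, although a further Fut1 probe set went from 268 to 26.6. Atn1 (2.44), the splicing factor Eftud2 (1.80), the RNA polymerase III factor subunit Gtf3c1 (1.72), the pyrimidine-degrading enzyme Dpys (1.68) and the nuclease Dnase1 (1.59) rested on pairs of the same accession. The remaining genes were Snap25, Cyb5a and Gabrb2, which are described below, the retinoid receptor Rxrg (505 to 1505 and 684 to 1468, median 1.34) and the hepatic P450 Cyp2c11 (713 to 1606 and 390 to 1089, median 1.33).

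Among the genes lower on every measured probe set was the ATP-sensitive potassium channel pore Kcnj11, from 1498 to 240 and from 4615 to 1478 on probe sets of the same accession (-2.14). The chemokine receptor Cxcr4, which binds CXCL12, went from 3799 to 910 and from 2361 to 398 (-2.31), again within an accession. A Cxcr4 probe set of another accession went from 37.3 to 499. The receptor Notch1, which passes signals between neighbouring cells of the vessel wall, went from 830 to 277 and from 1019 to 450 (-1.38). The lysosomal membrane protein Lamp1 had the lowest median (-2.48), from 2091 to 265 and from 1485 to 375 on separate accessions, and its other probe sets lay below the floor on both arrays. For Lamp1 and Kcnj11 no probe set pointed upward.

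The casein kinase Csnk1d, which phosphorylates clock proteins among others, went from 5765 to 1793 and from 1957 to 413 (-1.97). The RNA-binding La protein Ssb went from 4925 to 1367 and from 6450 to 1694 (-1.89), and Dock8, an activator of CDC42, from 584 to 241, from 2048 to 578 and from 5540 to 2522 (-1.27). The glycosyltransferase Mgat1, which opens the path to complex N-glycans, was lower on 3 probe sets of 3 accessions, from 1446 to 682, from 1865 to 824 and from 1683 to 623 (-1.18). Of the 15 genes, Mgat1 has its measured probe sets on the most accessions. The vitamin transporter Slc5a6 (-1.97), the endosomal gene Litaf (-1.64), Neurl2 (-1.99), the ectonucleotidase Entpd2 (-1.56), the gamma-secretase subunit Aph1a (-1.53), the small GTPase Ralb (-1.48) and Nme6 (-1.31) made up the remainder. Notch1 and Aph1a, which is part of the protease that cleaves Notch receptors, both rested on probe sets of a single accession.

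The 70 mg/kg array gives a further level for these genes, and any comparison of it with the control shares the control array. Sod1 lay at 19098 and 19515 at 70 mg/kg, between control and 35 mg/kg. Dcn lay at 16182 and 375 on its first accession, below the control, but at 1096 on its other, above it. Il3 lay at 1126 and 506, and Cds1 at 2262 on 1 probe set and 172, below the floor, on the other. Of the lower genes, Csnk1d lay at 1868 and 243 and Ssb at 706 and 1115 at 70 mg/kg. Kcnj11 lay at 2281 and 1636, so its probe sets lay on opposite sides of the control. Mgat1 lay at 1350, 1827 and 214, near the control on 2 probe sets.

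Genes with a single measured probe set gave larger differences, with nothing to check them against. The 12 highest chosen for naming ran from 2.98 to 4.04 and the 12 lowest from -2.85 to -4.43. Not all of them are given here. Those above control included the receptor Ptgir, through which prostacyclin relaxes vascular smooth muscle, from 1420 to 11219 (2.98), and the GABA receptor subunit Gabrd, from 295 to 2391 (3.02), whose other probe set went from 647 to 158. The calcineurin inhibitor Cabin1 went from 929 to 7442 and Irgq from 234 to 1906 (3.02). The atrial peptide gene Nppa stood at 3.18 on 1 probe set of 4, from 977 to 8872, and the other 3 lay below the floor on both arrays. The receptor gene Trhr (3.49) and the myelin gene Mobp (3.31) also had 1 bright probe set each, beside 2 and 3 others below the floor. Those below control included Spry1, a feedback inhibitor of growth factor receptors, from 2961 to 373 (-2.99), and the oestrogen receptor Esr2, from 2465 to 342 (-2.85). The nuclear pore gene Nup98 went from 3489 to 471 (-2.89) and Ciao2b from 3498 to 458 (-2.93), while another Ciao2b probe set went from 156 to 407. The brightest in the control of the 12 lowest was the peptidylarginine deiminase Padi2, from 13079 to 1333 (-3.29), and its other probe set went from 406 to 160.

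The functions below were described through 42 gene lists. The plot of gene lists shows each list's genes and its median beside the median of all measured genes, 0.04. Counts in each list are to be read against 16.8% higher and 16.3% lower. For 17 of the 42 lists the median moved to the opposite sign by a set margin with another floor or another choice of probe sets. The margin was the pooled SD between probe sets of one gene divided by the square root of the number of genes. Smaller moves across 0 were not counted, so the other lists need not keep their sign. The 17 were the lists of the contractile apparatus, calcium handling, both groups of ion channels, growth factors, TGF-beta, Notch and Wnt, collagens, the cytoskeleton, glutathione, the respiratory chain, the proteasome, the cell cycle, immediate early genes, nuclear receptors, histocompatibility and vesicle traffic.

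**Figure D4:**
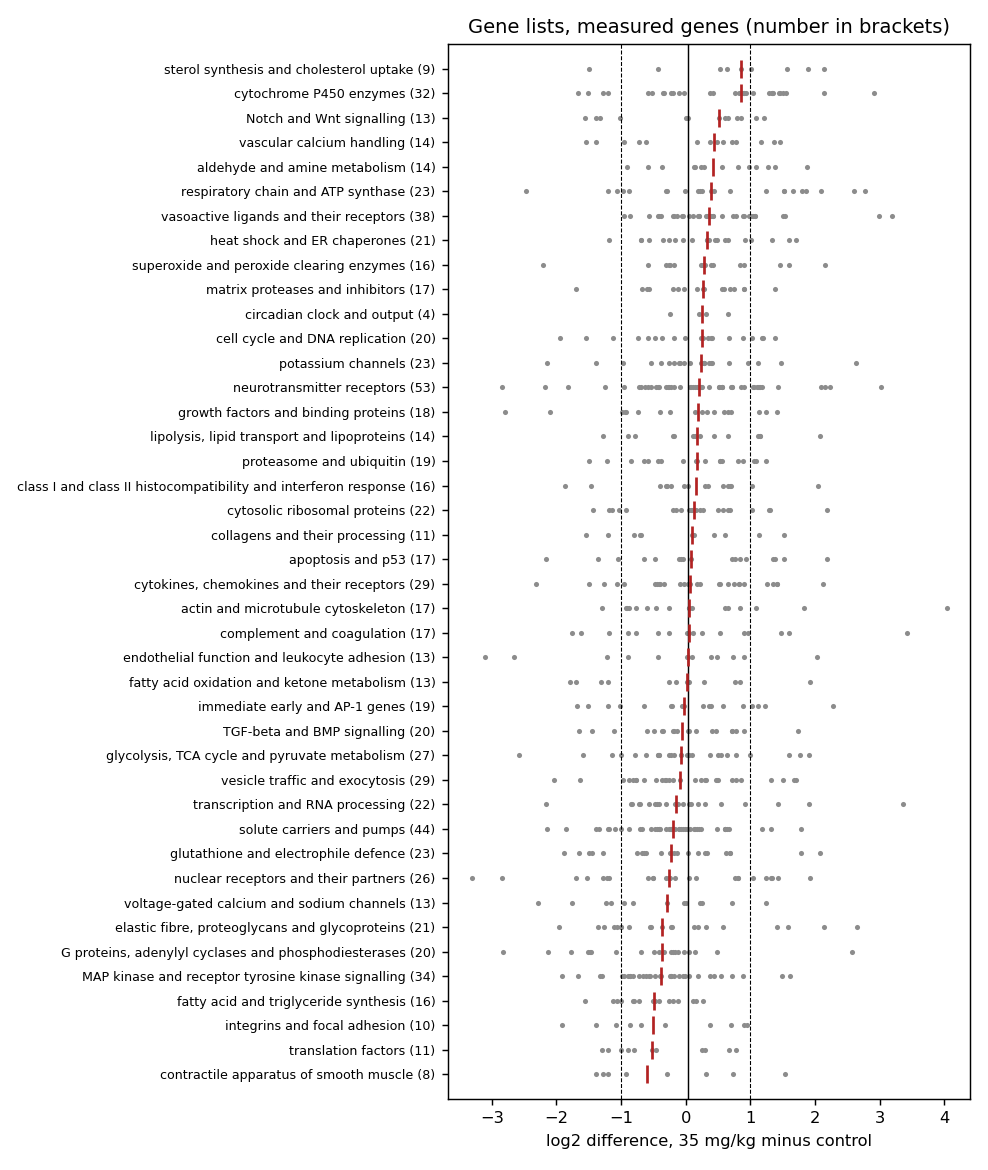
Log2 difference (35 mg/kg minus control) of the measured genes (grey points) of each of 42 gene lists, ordered by the list median (red tick), with the number of measured genes in brackets. The solid line is the median of all 2606 measured genes (0.04) and the dashed lines mark 2-fold. Sterol synthesis (0.86) and cytochrome P450 enzymes (0.85) have the highest medians and the contractile apparatus (-0.61) the lowest in this setting, an order that other settings do not keep, and every list has genes on both sides of 0.

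The list of aldehyde and amine metabolism, which is not confined to enzymes of acrolein, had 4 genes 2-fold or more higher and 0 lower of 14 measured (24 on the array), with a median of 0.42. Among its genes not measured, 3 lay above the floor at 35 mg/kg only and 4 in the control only. The retinaldehyde and aldehyde dehydrogenase Aldh1a1 went from 706 to 2588 (1.87), the aldo-keto reductase Akr1c14 from 587 to 1526 (1.38), the flavin monooxygenase Fmo1 from 368 to 779 (1.08) and Oaz2, an antizyme of polyamine synthesis, from 2645 to 6395 (1.27). Each rested on 1 probe set. The mitochondrial amine oxidase Maoa went from 422 to 623 (0.56) on 1 probe set and from 237 to 115, below the floor, on another, and Maob lay below the floor on both arrays. The mitochondrial aldehyde dehydrogenase Aldh2 lay above the floor in the control only, 359 against 162. Adh5, which clears formaldehyde as a glutathione adduct, stood at -0.59 and the lipid aldehyde dehydrogenase Aldh3a1 at -0.91. Lysyl oxidase (Lox), a copper amine oxidase that crosslinks collagen and elastin, was near the control on both measured probe sets (0.00 and 0.26). The vascular amine oxidase Aoc3 has no probe set of its own here and was not analysed.

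Of the enzymes that clear superoxide and peroxides, 3 were at least 2-fold higher and 1 lower of 16 measured (23 on the array; median 0.28). Beside Sod1, the mitochondrial manganese superoxide dismutase Sod2 went from 245 to 1096 (2.16) and the peroxiredoxin Prdx2 from 616 to 1689 (1.46), each on 1 probe set. The glutathione peroxidase Gpx2, known from epithelium, went from 1067 to 231 (-2.21). The selenoprotein Selenow stood at 0.90, and the mitochondrial carrier Ucp2 at 0.11 and 1.58 on its probe sets. Catalase (Cat) had no measured probe set.

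Glutathione and electrophile defence genes divided, with 2 of 23 measured genes 2-fold or more higher and 5 lower (33 on the array; median -0.23). Glutathione synthetase (Gss), the last enzyme of glutathione synthesis, went from 5691 to 1541 (-1.88), and the membrane transferase Mgst2 from 5178 to 1826 (-1.50). The theta class transferase Gstt1 went from 890 to 326 (-1.45), and the aldehyde reductase Akr7a2 from 820 to 260 (-1.66) with another probe set going from 178 to 718. Heme oxygenase (Hmox1), a classical target of the electrophile sensor, went from 727 to 299 (-1.28), and its other probe set from 211 to 107. Higher were the kappa class transferase Gstk1, from 754 to 3192 (2.08), and the mu class transferase Gstm2, from 199 to 682 (1.78), whose close relatives may share its probes. The quinone reductase Nqo1 lay at 901 and 926 (0.04), and Gsta4, which conjugates 4-hydroxynonenal, at 345 and 393 (0.19). The subunits of the rate-limiting enzyme of glutathione synthesis crossed the floor in opposite directions, the catalytic Gclc from 214 to 61.5 and the modifier Gclm from 113 to 917. When the floor was lowered to the 5th or 25th percentile, the median of this list was above 0 (0.20 and 0.040).

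The extracellular matrix did not move as a block. Of 11 measured collagen genes and their processing enzymes (19 on the array; median 0.10), 2 were at least 2-fold higher and 2 lower. Type I collagen Col1a1 was higher on all 4 probe sets, from 338 to 946, from 778 to 1387, from 877 to 1208 and from 572 to 1537 (median 1.13), and its partner chain Col1a2 stood at 0.61 and the type III chain Col3a1 at 0.04 and 0.83. The crosslinking enzyme Loxl1 went from 605 to 3020 and from 400 to 662 (1.52). Col15a1, a basement membrane collagen, went from 2043 to 698 (-1.55) and Col5a1, which sets fibril diameter, from 1863 to 809 (-1.20), each on 1 probe set. The lysyl hydroxylase Plod2 stood at -0.80 and the cartilage collagen Col10a1 at -0.71. The list's median was below 0 at each other floor tried, the 5th (-0.62), 25th (-0.57), 55th (-0.30) and 75th percentile (-0.71).

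Of 21 measured elastic fibre proteins, proteoglycans and glycoproteins (33 on the array; median -0.36), 4 were at least 2-fold higher and 7 lower. Higher beside Dcn and Fn1 were the pericyte proteoglycan Cspg4, from 206 to 906 (2.14), and tenascin C (Tnc), a glycoprotein of injured and remodelling tissue, at a single measured probe set (1.41). Elastin (Eln) went from 412 to 191 (-1.11), its level at 35 mg/kg lying just above the floor. The cell surface proteoglycan Sdc3 went from 2720 to 700 (-1.96) and the SPARC relative Sparcl1 from 536 to 209 (-1.36). The summed intensity of all probe sets of the list, also those below the floor, went from 55874 to 103305. The brightest Dcn probe set alone accounts for 20940 and 62304 of these. Osteopontin (Spp1), a marker of synthetic smooth muscle, lay below the floor on both arrays.

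Matrix proteases and their inhibitors were mostly within 2-fold, with 1 of 17 measured genes higher, the shedding protease Adam17 (1.38), and 1 lower, the cathepsin inhibitor Cst3 (-1.70). The plasminogen activator Plau stood at 0.90 and the metalloproteinase inhibitors Timp1 at 0.89 and Timp2 at 0.74. Of 10 measured integrin and focal adhesion genes (median -0.51), 0 were at least 2-fold higher and 3 lower. The laminin receptor chain Itgb4 stood at -1.91, the smooth muscle integrin chain Itga8 at -1.39 and talin (Tln1), which links integrins to actin, at -1.08.

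The contractile apparatus had a list median of -0.61, with 1 of 8 measured genes 2-fold or more higher and 3 lower (12 on the array). The smooth muscle myosin heavy chain Myh11 went from 439 to 191 on 1 probe set (-1.20) and from 123, below the floor, to 529 on another. Tagln went from 922 to 483 (-0.93) and from 414 to 174. Acta2 stood at -0.28 on 1 probe set, while another lay at 970 in the control and at 114, under the floor, at 35 mg/kg, and a further one at 112 and 190. Calponin (Cnn1), a regulator of actomyosin, went from 218 to 633 (1.54), and the regulatory light chain Myl9 stood at 0.30 and 1.17. The list's median was -0.27 with the values as deposited and -0.26 with a common trimmed mean, where integrin and focal adhesion genes were lowest (-0.67 in both), and -0.28 with a floor at the 25th or 55th percentile. Within Acta2, Myh11 and Tpm1, probe sets of one gene thus lay on both sides of the control. Fewer smooth muscle cells and less of these RNAs per cell cannot be told apart in a tissue extract. Of 17 measured cytoskeletal genes (median 0.05), 3 were higher and 1 lower. The dynein chain Dynlrb1 went from 255 to 4177 (4.04), the actin-sequestering thymosin Tmsb4x from 515 to 1819 (1.82) and Arpc1b of the actin-branching complex from 332 to 702 (1.08), whereas cytoplasmic actin (Actb) stood at -0.91 and the microtubule protein Map1a at -1.30.

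Among genes of vascular calcium handling (14 measured of 19; median 0.43), 3 were at least 2-fold higher and 2 lower. The endoplasmic reticulum calcium pumps lay below control. Atp2a2, the main pump of smooth muscle, was lower on all 3 measured probe sets (304 to 199, 417 to 216 and 1770 to 807, median -0.95), and Atp2a3 went from 1941 to 743 (-1.39). The inositol trisphosphate receptor Itpr1, which releases stored calcium, went from 1881 to 645 (-1.54), but 2 further probe sets went from 49.0 to 295 and from 118 to 703. The plasma membrane calcium pump Atp2b1 stood at 1.46, the calcineurin subunit Ppp3r1 at 1.36 and the kinase subunit Camk2a at 1.17, each on 1 measured probe set. Further probe sets went the other way for Atp2b1, from 211 to 37.9, and for Ppp3r1, from 539 to 127.

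Of 13 measured voltage-gated calcium and sodium channel genes (median -0.29), 1 was at least 2-fold higher and 4 lower. The lower ones were the auxiliary calcium channel subunits Cacnb1 (3677 to 1657, -1.15), Cacnb2 (689 to 292, -1.24) and Cacnb3 (1046 to 310, -1.76), which bring the pore to the membrane, and the sodium channel Scn8a (2304 to 471, -2.29), of which another probe set went from 70.8 to 1298. The L-type pore Cacna1c, the main route of calcium entry in arterial muscle, stood at -1.32, -0.96 and 0.65 on its probe sets. The T-type pore Cacna1g was higher, from 535 to 1266 (1.24). Of 23 measured potassium channel genes (37 on the array; median 0.23), 3 were higher and 2 lower. The voltage-gated channel Kcna5, which holds the resting potential of arterial muscle, went from 487 to 3015 (2.63), and Kcnc4 (1.47) and Kcnc1 (1.11) were also higher. Kcna4 stood at -1.39. Of the vascular ATP-sensitive channel, the pore Kcnj8 went from 1057 to 541 (-0.96) and the sulfonylurea receptor Abcc9 stood at -0.87 and 1.33. Both its pore and the relative Kcnj11 thus lay below control, Kcnj8 within 2-fold.

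Vasoactive ligands and receptors were among the lists with calls in 1 direction only: 8 of 38 measured genes were at least 2-fold higher (21.1%) and 0 lower (58 on the array; median 0.35). This holds for measured genes only. Of the others, 6 lay above the floor at 35 mg/kg only and 7 in the control only. Beside Ptgir and Nppa, the beta-adrenergic receptors Adrb1 (661 to 1921, 1.54), which speeds the heart, and Adrb3 (1433 to 4063, 1.50), known from fat, were higher. So were the natriuretic peptide Nppb (199 to 417, 1.07) and the neuronal nitric oxide synthase Nos1 (332 to 1488 and 392 to 383, median 1.07). The endothelial nitric oxide synthase Nos3, which makes the main relaxing factor of the endothelium, stood at 0.39, 2.52 and 0.09 on its measured probe sets, while another went from 352 to 64.7. Endothelin (Edn1), the endothelial constrictor peptide, went from 291 to 484 (0.74). Apart from Nos1 and Nos3, each of these rested on 1 measured probe set.

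**Figure D5:**
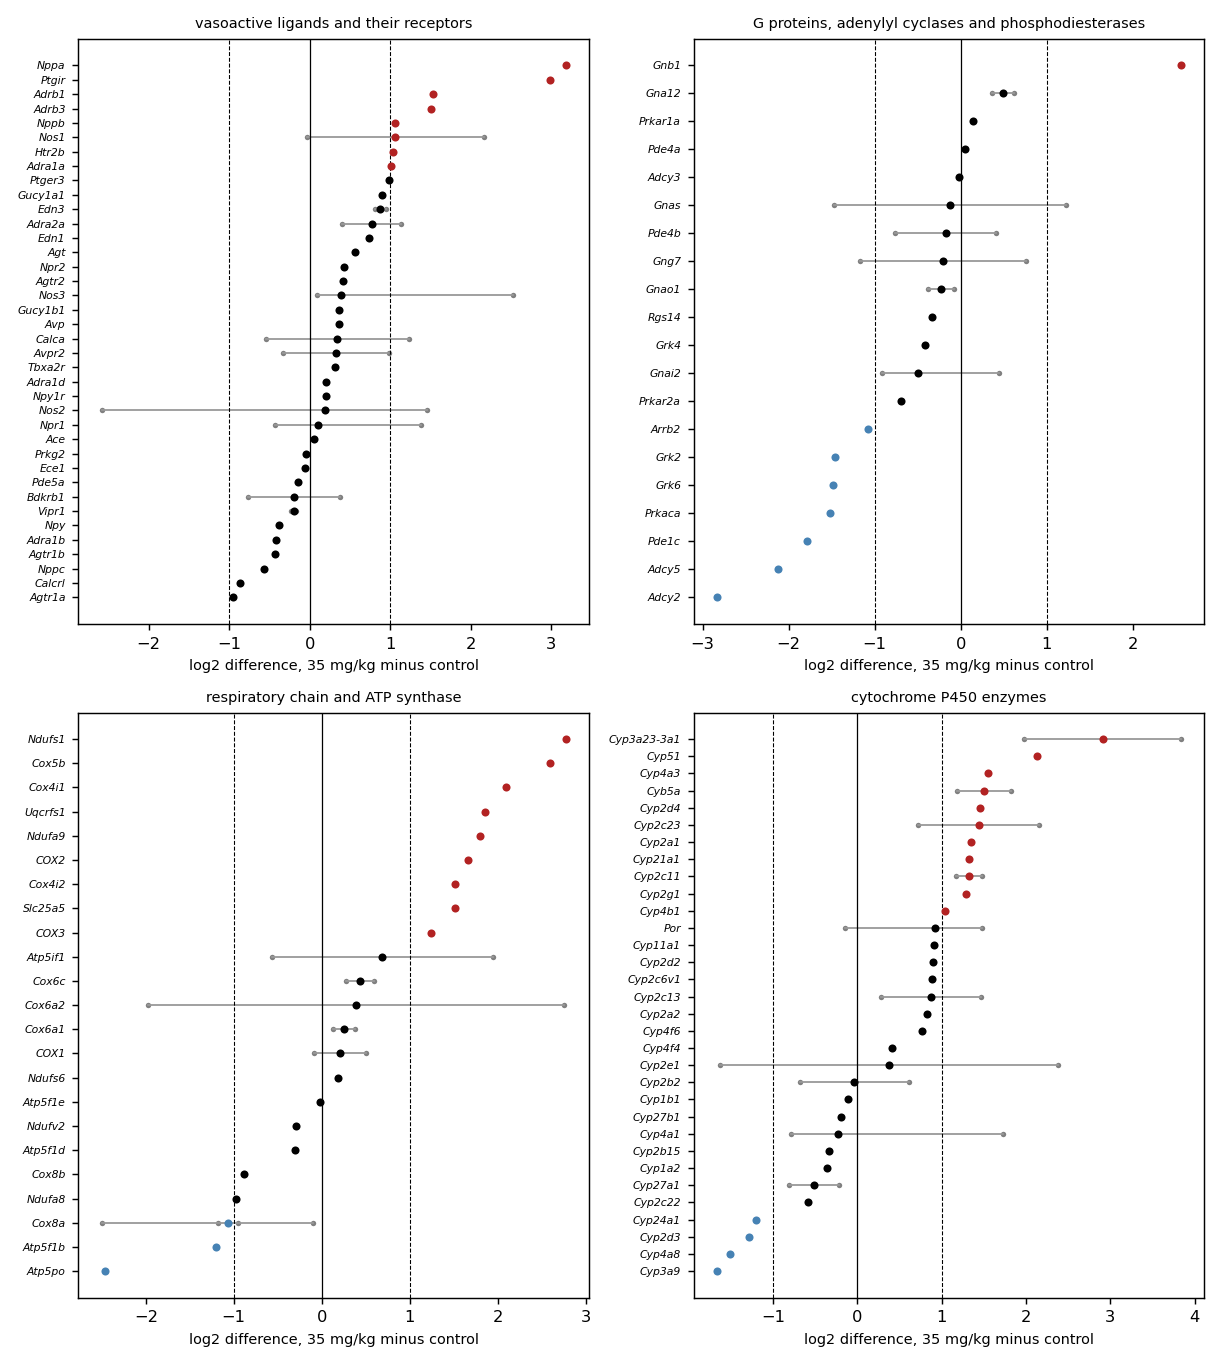
Log2 difference (35 mg/kg minus control) of every measured gene of 4 lists: vasoactive ligands and receptors, G proteins with adenylyl cyclases and phosphodiesterases, the respiratory chain with ATP synthase, and cytochrome P450 enzymes. Large points are gene medians (red at least 2-fold higher, blue at least 2-fold lower, black within 2-fold), small grey points single probe sets and grey lines their range. Most large differences rest on 1 probe set, and the vasoactive list has 8 red and 0 blue genes.

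Downstream of these receptors, G proteins, adenylyl cyclases and phosphodiesterases leaned the other way, with 1 of 20 measured genes 2-fold or more higher and 7 lower (35.0%; 38 on the array; median -0.37). The adenylyl cyclases Adcy2 (1460 to 205, -2.83) and Adcy5 (4325 to 992, -2.12) make cyclic AMP, and the protein kinase A catalytic subunit Prkaca (2411 to 844, -1.51) responds to it. The calcium-dependent phosphodiesterase Pde1c went from 892 to 260 (-1.78). The receptor kinase Grk6, which switches off activated receptors, went from 11809 to 4218 (-1.49), with another probe set from 160 to 768. The beta subunit Gnb1 was higher on 1 probe set, from 404 to 2392 (2.57), but another went from 505 to 136, below the floor. Each of the lower genes had 1 measured probe set. For Prkaca too an unmeasured probe set went the other way, from 172 to 628.

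Of 34 measured MAP kinase and receptor tyrosine kinase genes (46 on the array; median -0.39), 2 were at least 2-fold higher and 4 lower. The MAP kinase kinase Map2k1 went from 2389 to 756 (-1.66), with another probe set from 98.3 to 390, and its close relative Map2k2 from 237 to 1249 and from 438 to 650 (1.48). The phosphatase Ptpn1 stood at -1.32, -1.87 and 0.55, the receptors Ntrk2 at -1.91 and Erbb2 at -1.29, and the phospholipase Plcg1 at 1.60. Of 18 measured growth factors and binding proteins (median 0.19), 3 were higher and 2 lower. Cardiotrophin (Ctf1, 1.41), Fgf1 (1.24) and Hgf (1.13, with a dim probe set from 124 to 50.8) were higher, Fgf9 went from 1327 to 190 (-2.80) and Igfbp6 from 2022 to 471 (-2.10), and insulin-like growth factor Igf1 had a median of -0.99 with its probe sets from -1.79 to 0.90. The growth factor median was below 0 for a floor at the 5th (-0.21), 25th (-0.19) or 55th percentile (-0.14).

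In the TGF-beta and BMP list 1 of 20 measured genes was higher and 3 lower (median -0.05). The latent TGF-beta binding protein Ltbp2 stood at 1.74, the co-receptor Tgfbr3 at -1.66 (1382 to 438, and 562 to 182 on another probe set), the BMP signal mediator Smad9 at -1.45 and the activin receptor Acvr2b at -1.12, with another Acvr2b probe set from 51.5 to 938. In the Notch and Wnt list 2 of 13 were higher and 4 lower (median 0.52). Beside Notch1 the Notch ligand Jag2 (-1.01), the Notch feedback gene Nrarp (-1.33) and the Wnt scaffold Axin1 (-1.56) were lower, and the kinase Gsk3b (1.21) and the ligand Dll1 (1.08) higher, although another Gsk3b probe set went from 492 to 158. Nrarp went from 4460 to 1775 and Axin1 from 4381 to 1484, each on 1 probe set, and Jag2 stood at -0.31 and -1.71 on its probe sets.

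Respiratory chain and ATP synthase genes had 9 of 23 measured genes 2-fold or more higher (39.1%) and 3 lower (38 on the array; median 0.39). The complex I subunits Ndufs1 (226 to 1546, 2.77) and Ndufa9 (464 to 1621, 1.80), the Rieske protein Uqcrfs1 of complex III (346 to 1253, 1.86) and the cytochrome oxidase subunits Cox5b (332 to 2006, 2.59) and Cox4i1 (211 to 903, 2.10) were higher. A further Cox4i1 probe set went from 154 to 1060 and another from 231 to 86.9. The largest difference downward was that of the ATP synthase stalk subunit Atp5po, from 10129 to 1831 (-2.47). Of the 9 higher genes, each had 1 measured probe set. Without probe sets whose names mark shared or less specific probes the list's median was -0.02.

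Of 27 measured genes of glycolysis, the TCA cycle and pyruvate metabolism (median -0.08), 3 were at least 2-fold higher and 4 lower. The liver-type phosphofructokinase Pfkl went from 1123 to 189, at the floor (-2.57), and aldolase (Aldoa) stood at -1.59 and the muscle phosphoglycerate mutase Pgam2 at -1.15. The brain glycogen phosphorylase Pygb (1.90), the gluconeogenic enzyme Fbp1 (1.76) and the glucose transporter Slc2a1 (1.59) were higher, although another Slc2a1 probe set went from 431 to 94.5. Fatty acid oxidation and ketone genes had a median of 0.01, with 1 of 13 measured genes higher and 4 lower (32 on the array). The hydroxyacyl-CoA dehydrogenase Hadh went from 1070 to 308 (-1.80), the short-chain dehydrogenase Acads from 500 to 202 (-1.31), the isomerase Eci1 stood at -0.01 and -2.42, and their transcriptional regulator Ppara went from 665 to 204 (-1.70). The ketone body thiolase Acat1 was higher (1.92), and another of its probe sets went from 174 to 642.

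Fatty acid and triglyceride synthesis had 0 of 16 measured genes 2-fold or more higher and 4 lower (22 on the array; median -0.49). The lipogenic transcription factor Srebf1 went from 702 to 239 (-1.56), Gpd1, which makes the glycerol backbone, from 506 to 233 (-1.12), and the acyltransferase Gpam from 1293 to 619 (-1.06). The last was Slc2a4, whose probe sets oppose each other as given above. Of the other Gpam probe sets 1 went from 89.4 to 730. Malic enzyme (Me1) stood at -0.93 and -0.70, with its 3 further probe sets also lower, from 498 to 123, 202 to 51.3 and 268 to 76.9. Me1 was thus lower on all 5 of its probe sets, within 2-fold on the measured ones. The desaturase Scd stood at -0.81. In the list of lipolysis and lipid transport (14 measured; median 0.18) 4 genes were higher, the apolipoproteins Apoc3 (977 to 4106, 2.07), Apoc1 (1.15) and Apob (1.12) and the bile acid binding protein Fabp6 (1.14), and 1 lower, Apoe (2147 to 885, -1.28).

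The median of the list for sterol synthesis and cholesterol uptake was 0.86, with 4 of 9 measured genes 2-fold or more higher and 1 lower (15 on the array). The pathway turns acetyl-CoA through squalene and lanosterol into cholesterol. The lanosterol demethylase Cyp51 went from 204 to 896 (2.13), and of its other probe sets, all below the floor in the control, 1 reached 605 and 1 reached 211. Dhcr7, which makes cholesterol in the last step, went from 271 to 1006 (1.89). Lanosterol synthase (Lss) went from 549 to 1618 on 1 probe set (1.56) but from 560 to 134 on another. Squalene synthase (Fdft1) stood at 0.76 and 1.25. The sterol isomerase Ebp, a step between Cyp51 and Dhcr7, went the other way, from 1201 to 423 (-1.50). With a floor at the 5th percentile the list's median was 0.18, and P450 genes had the highest median at the 25th (0.61).

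The promoters of the sterol genes that differed most are shown because members of 1 pathway lay on both sides of the control. They are the RefSeq windows on the GRCr8 assembly from 250 bases before to 50 after the transcript start, read 5′ to 3′ along the gene, 300 bases each. Capitals mark CCAAT, the box bound by the factor NF-Y, on either strand (ATTGG on the other).
Lss (chr20:12118181-12118480, minus strand): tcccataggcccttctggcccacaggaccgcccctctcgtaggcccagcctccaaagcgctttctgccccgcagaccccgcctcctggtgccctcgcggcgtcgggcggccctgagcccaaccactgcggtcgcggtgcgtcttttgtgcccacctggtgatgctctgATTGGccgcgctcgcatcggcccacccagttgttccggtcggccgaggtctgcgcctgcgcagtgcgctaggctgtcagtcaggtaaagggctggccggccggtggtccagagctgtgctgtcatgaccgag
Cyp51 (chr4:30991443-30991742, plus strand): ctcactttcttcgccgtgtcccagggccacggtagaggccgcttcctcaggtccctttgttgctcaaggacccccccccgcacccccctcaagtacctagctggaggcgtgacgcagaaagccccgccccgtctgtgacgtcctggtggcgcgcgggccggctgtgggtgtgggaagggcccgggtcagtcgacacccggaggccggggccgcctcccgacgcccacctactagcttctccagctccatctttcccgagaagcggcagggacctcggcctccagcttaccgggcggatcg
Dhcr7 (chr1:208444184-208444483, plus strand): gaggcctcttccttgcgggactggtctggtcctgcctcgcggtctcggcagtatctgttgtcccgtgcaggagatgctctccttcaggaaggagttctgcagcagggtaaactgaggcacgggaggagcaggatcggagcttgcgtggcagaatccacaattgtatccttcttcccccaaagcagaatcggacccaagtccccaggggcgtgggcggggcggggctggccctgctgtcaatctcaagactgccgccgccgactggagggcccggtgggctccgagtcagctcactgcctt
Ebp (chrX:16971212-16971511, plus strand): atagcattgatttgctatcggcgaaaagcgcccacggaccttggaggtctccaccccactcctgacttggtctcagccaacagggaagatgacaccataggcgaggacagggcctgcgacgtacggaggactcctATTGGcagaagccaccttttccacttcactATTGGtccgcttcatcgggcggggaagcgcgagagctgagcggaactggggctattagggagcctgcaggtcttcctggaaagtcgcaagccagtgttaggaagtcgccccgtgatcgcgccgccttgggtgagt
The box occurs 1 time in the window of Lss and 2 times in that of Ebp, and no match was found in those of Cyp51 and Dhcr7. It was found in 10 of the 13 sterol promoters in the table, for 15 genes on the array, and in 37.5% of all 33469 promoters of the same length. The sterol regulatory element TCACNCCAC, searched on both strands, was in 0 of the 13 and in 1.12% of all. Lss, higher on its measured probe set, and Ebp, lower, both hold the CCAAT box. A match of letters is a description and not a binding site, and its absence from these windows says nothing of sites elsewhere.

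Cytochrome P450 genes and their electron donors had a median of 0.85, with 11 of 32 measured genes 2-fold or more higher (34.4%) and 4 lower (52 on the array). Beside Cyp3a23-3a1 and Cyp51, the fatty acid hydroxylase Cyp4a3 went from 217 to 634 (1.54). The electron donor cytochrome b5 (Cyb5a) went from 316 to 714 and from 231 to 821 on probe sets of different accessions, and from 91.8 to 301 on a further probe set that lay below the floor in the control (1.50). Lower were Cyp3a9 (751 to 237, -1.66) and Cyp4a8, from 812 to 285 (-1.51) and, on another probe set, from 1557 to 185. Many of these enzymes are known from liver, are near-identical within a subfamily and may share probes, so the genes are not independent of one another. Of the 11 higher genes, 4 had at least 2 measured probe sets. When the floor was set at the 5th, 25th or 55th percentile instead, the median of the list became 0.43, 0.61 or 0.42.

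Cytosolic ribosomal proteins divided evenly, with 4 of 22 measured genes higher and 4 lower (median 0.13). Rpl19 went from 199 to 901 (2.18), Rpl11 from 193 to 475 (1.30) and Rps9 from 360 to 876 (1.28), while Rpl35 (-0.66 and -2.23 on its probe sets, median -1.44), Rpl14 (-1.19) and Rplp0 (-1.14) were lower. Translation factors had 0 of 11 higher and 2 lower (median -0.52), the exchange factor subunit Eif2b2 (4349 to 1762, -1.30) and the helicase Eif4a2 (755 to 326, -1.21). Of 19 measured proteasome and ubiquitin genes 3 were higher and 2 lower (median 0.17). The ubiquitin receptor Psmd4 stood at 1.24, 2.03 and -0.47, the ubiquitin-like modifier Nedd8 at 1.08 and the ligase Nedd4 at 1.05, and the activator subunit Psme2 at -1.50 and the core subunit Psma7 at -1.22, with another Psma7 probe set from 85.2 to 508.

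Heat shock and endoplasmic reticulum chaperones had 4 of 21 measured genes higher and 1 lower (median 0.33). The lumenal chaperone Hyou1 went from 271 to 887 (1.71), with its other probe set from 159 to 1328. The mitochondrial chaperonin Hspd1 went from 238 to 719 (1.59), the proline isomerase Ppib from 270 to 681 (1.33) and the inducible Hspa1a from 467 to 938 (1.00). The small heat shock protein Cryab, abundant in muscle, was lower, from 826 to 362 (-1.19) and from 242 to 53.3 on its other probe set. Both probe sets of Hyou1 and of Cryab therefore pointed the same way. Hspb6, a small heat shock protein of smooth muscle, stood at 0.15 and 1.68.

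In the list of apoptosis and p53 (17 measured; median 0.08) 4 genes were higher and 3 lower. Gadd45a, a gene induced by DNA damage, went from 251 to 1140 (2.18), and its 3 other probe sets also lay higher at 35 mg/kg, 1 of them crossing the floor, from 153 to 292. The cyclin-dependent kinase inhibitor Cdkn1a, a p53 target, went from 1104 to 2865 (1.38), caspase Casp2 from 590 to 1697 (1.52) and the TNF receptor Tnfrsf1a from 418 to 1071 (1.36). Lower were the caspase Casp6 (1300 to 289, -2.17) and the death ligand Faslg (596 to 231, -1.37). Of 20 measured cell cycle genes (median 0.25), 4 were higher and 3 lower. Cyclin Ccne1 went from 1813 to 4877 and from 452 to 866 (1.18) and Cdk4 from 241 to 550 (1.19), while the replication clamp Pcna went from 952 to 325 (-1.55), the phosphatase Cdc25a from 799 to 207 (-1.95), and the cyclin Ccnd3 stood at -1.12, -0.29 and -1.80.

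Immediate early and AP-1 genes, which respond within minutes to growth factors and stress, had 4 of 19 measured genes higher and 4 lower (median -0.03, and 0.01 after quantile normalization). Fosl2 (222 to 1080, 2.28), Jund (1.11) and Fos (193 to 1010 and 3943 to 4105, median 1.22) were higher, and Myc (788 to 244, -1.69), Junb (2034 to 337 and 345 to 256, -1.51) and Fosl1 (-1.20) lower. The bright Fos probe set differed by 0.06. Of 26 measured nuclear receptors and partners (median -0.25), 6 were higher and 7 lower. The coactivator Ncoa1 (-3.31), the vitamin D receptor Vdr (3893 to 1357, -1.52) and Ppara lay below, and the orphan receptor Nr2f1 (227 to 860, 1.92) and the retinoid receptor Rxrb (840 to 2261, 1.43) above. Of 22 genes of transcription and RNA processing (median -0.15) 3 were higher and 1 lower. Gata3 stood at 3.36, Mef2d, a muscle transcription factor, at 1.90 (1185 to 4438) and Id3 at 1.43, and Gtf2ird1 had a median of -2.17 with 1 probe set going from 4734 to 291 and the other from 293 to 236. The 4 measured clock genes lay within 2-fold (median 0.26), Hlf having its probe sets at -0.49 and 1.80 and Tef standing at 0.31, Bhlhe40 at 0.20 and Nr1d1 at -0.25. Of the 9 clock genes on the array, 3 lay above the floor at 35 mg/kg only and 0 in the control only.

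Immune genes showed no common direction. Of 29 measured cytokines, chemokines and receptors (56 on the array; median 0.06), 5 were at least 2-fold higher and 4 lower. Beside Il3 and Cxcr4, the membrane chemokine Cx3cl1 went from 2104 to 10336 and from 1516 to 2182 (1.41), the decoy receptor Il1r2 from 742 to 1964 (1.40), and the receptor Lifr from 645 to 230 (-1.49). Of 17 complement and coagulation genes (median 0.05) 3 were higher and 3 lower. Coagulation factor F10 (3.43), complement C3 (218 to 661, 1.60) and its regulator Cd55 (1.47) were above control, and the complement inhibitor Serping1 (2069 to 613, -1.75), the thrombin receptor F2r (1516 to 493, -1.62) and C1qc (1064 to 469, -1.18) below it. Of 16 histocompatibility and interferon genes (median 0.16) 2 were higher, the antiviral Mx1 (236 to 976, 2.05) and the peptide transporter subunit Tap2 (1.02), and 2 lower, the class I genes RT1-S3 (8052 to 2201, -1.87) and RT1-CE16 (6448 to 2330, -1.47). The class I genes are near-identical, so these cannot be counted as independent.

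Among 13 measured genes of endothelial function and leukocyte adhesion (20 on the array, median 0.03) 1 was higher and 3 lower. Of its genes not measured, 5 lay above the floor at 35 mg/kg only and 0 in the control only. With a floor at the 5th or 25th percentile the list's median was 0.65 or 0.38. The adhesion molecule Vcam1, which captures monocytes, went from 218 to 889 (2.02), with another probe set from 65.1 to 265. The tight junction protein Ocln went from 2786 to 439 (-2.66) but from 174 to 812 on another probe set, Glycam1 from 1936 to 224 (-3.11), and the constitutive ligand Icam2 from 561 to 241 (-1.22). The VEGF receptor Flt1 stood at -0.90. The further probe set thus lay on the same side of the control for Vcam1 and on the opposite side for Ocln.

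Neurotransmitter receptors, the largest list, had 12 of 53 measured genes 2-fold or more higher (22.6%) and 4 lower (82 on the array; median 0.21). The GABA receptor subunits Gabra2 (272 to 1285, 2.24), Gabra4 (251 to 1119, 2.16) and Gabrb2 (211 to 469 and 237 to 501, 1.12) were higher with Gabrd. So was the nicotinic receptor subunit Chrna4 (311 to 1325, 2.09). The glutamate receptor subunits Grik5 (7155 to 1000, -2.84) and Grin2b (985 to 219, -2.17) were lower. The Gabrb2 probe sets come from different accessions. Of 29 measured genes of vesicle traffic and exocytosis (median -0.09) 4 were higher and 2 lower. The synaptic membrane protein Snap25 went from 358 to 823 and from 342 to 1197 (1.50), Syt3 stood at 1.70, Stx8 at 1.67 and Stx5 at 0.99 and 1.64, and Rab13 (-1.64) and Ssr4 (5123 to 1245, -2.04) were lower.

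Solute carriers and pumps leaned downward, with 3 of 44 measured genes 2-fold or more higher and 8 lower (18.2%; 69 on the array; median -0.20). The creatine transporter Slc6a8 went from 945 to 214 (-2.14), the glucose transporter Slc5a2 from 750 to 208 (-1.85), the serotonin transporter Slc6a4 from 3333 to 754 and from 637 to 407 (-1.40), and the copper pump Atp7b from 534 to 212 (-1.33). The dopamine transporter Slc6a3 (1356 to 4659, 1.78) and the GABA transporter Slc6a13 (321 to 802, 1.32) were higher. The share of lower genes in this list was close to that over all measured genes, 16.3%.

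Of the 2130 genes not measured, 499 lay above the floor at 35 mg/kg only and 592 in the control only, 47 had probe sets crossing it in both directions and 992 lay below it on both arrays. For these only a bound can be given, the bright value against the floor. Counting those at least 2-fold above the floor, 211 were higher at 35 mg/kg and 264 lower. The procollagen enhancer Pcolce, which speeds the trimming of fibrillar procollagen, lay at 2415 at 35 mg/kg and 168 in the control, at least 12.8-fold higher. Rgs18 (at least 9.01-fold), the peptide transporter subunit Tap1 (7.76-fold, with its other probe set also crossing the floor, from 84.9 to 551), the pyrimidine-degrading Dpyd (185 to 1318), the cyclic nucleotide phosphodiesterase Pde3a of vascular muscle (6.69-fold), the latent TGF-beta binding protein Ltbp3 (6.68-fold), the vascular collagen Col8a1 (5.86-fold) and the epoxide hydrolase Ephx1 (5.82-fold) followed, each as a lower bound. Of the genes in the collagen list, 1, Pcolce, lay above the floor at 35 mg/kg only and 4 in the control only.

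Lower by bound were the developmental factor Shox2, from 3192 to 73.8 (at least 16.9-fold), and the muscle carnitine palmitoyltransferase Cpt1b, from 2594 to 165 (at least 13.8-fold), which admits fatty acids to mitochondria. The other Cpt1b probe set also went from above the floor to below it, 308 to 34.8. The RNA-binding Rbm10 (at least 9.23-fold), Kank2 (8.76-fold), Skida1 (8.40-fold), the poly(A)-binding Pabpc4 (8.36-fold), the nucleoside carrier Slc29a2 (8.14-fold) and the anticoagulant protein S, Pros1 (7.79-fold), followed. Apart from Shox2 and Cpt1b, each of these had 1 probe set.

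Markers of the cell types that a piece of aorta can hold were set beside these results as lists, and their part in them was not tested. The sums given run over all probe sets of a list's genes, also those below the floor. The summed intensity of the fibroblast markers went from 30072 to 76803, with 2 of 6 measured genes 2-fold or more higher, Dcn and Col1a1, and 0 lower, and it was 33933 at 70 mg/kg. Both genes are matrix results given above. T cell markers went from 7007 to 3355, with 0 of 7 higher and 2 lower, the kinase Lck (2286 to 566, -2.01) and Cd8b (1666 to 641, -1.38). Counted without the 2-fold limit, 3 of the 7 T cell markers lay above the control and 4 below it. Mast cell markers went from 8442 to 14660, with 3 of 8 higher and 2 lower. The tryptase Tpsb2 (3715 to 9404, 1.34), the receptor chain Ms4a2 (1.08) and the histamine-forming Hdc (1.06) were higher, and another tryptase, Tpsab1 (-1.39), and the receptor chain Fcer1a (-1.03) lower. Tpsb2 alone made up most of the shift of the mast cell sum.

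Cardiac muscle markers went from 10512 to 19931, with 3 of 8 higher and 1 lower, and Nppa made up most of the shift. The atrial light chain Myl7 stood at 0.69 and 2.75 and the slow myosin Myh7 at -1.51, with a dim probe set from 36.2 to 413. Skeletal muscle markers went from 10638 to 6479, with 1 of 5 higher, Ckm (1.06), and 1 lower, Casq1 (6306 to 1508, -2.06). The fall of Casq1 was larger than that of the whole skeletal muscle sum. Adipocyte markers went from 16710 to 13705, with 1 of 6 higher, Ucp1 (226 to 627, 1.47), and 2 lower, Slc2a4 and Ppara. The lipase Lpl was higher within 2-fold on all 3 probe sets (0.59, 0.66 and 0.74). Smooth muscle markers went from 6248 to 4652, with 1 of 5 higher and 1 lower, and endothelial markers from 13127 to 13182, with 0 of 7 higher and 1 lower.

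The remaining marker lists were those of nerve and Schwann cells (14774 to 18389; 2 of 8 higher, 1 lower), liver (9080 to 14645; 1 of 8 higher, 0 lower), macrophages (4564 to 4099; 0 of 4 past 2-fold), B cells (1395 to 2569; 1 of 2 higher), erythroid cells (4864 to 4476; 0 of 2), neutrophils (1191 to 1396; 1 of 2 higher) and chondrocytes (4902 to 3379; 0 of 2). The macrophage marker Lyz2 lay above the floor in the control only, 818 against 81.5, and Csf1r and Itgam lay below it on both arrays. The neutrophil genes S100a8 and S100a9 were likewise above it in the control only. The measured markers of these 2 cell types mostly lay above the control. This held for 3 of 4 macrophage genes (median 0.32) and 2 of 2 neutrophil genes (median 1.01). A single Dcn probe set made up most of the shift of the fibroblast sum.

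The medians of the lists over the 70 mg/kg array against the same control array were 0.64 for sterol synthesis, 0.47 for P450 enzymes, 0.44 for the respiratory chain, 0.03 for vasoactive ligands and receptors, -0.12 for G proteins and cyclases, -0.02 for the contractile apparatus, -0.38 for fatty acid synthesis and -1.03 for fatty acid oxidation. Beside them stand the values at 35 mg/kg of 0.86, 0.85, 0.39, 0.35, -0.37, -0.61, -0.49 and 0.01. Both sets share the control array, so their likeness is not independent support, and the differences between the doses were not tested.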

How the data were processed

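Total RNA of rat thoracic aorta was measured on 1 oligonucleotide array per group. The values deposited by the authors are linear intensities, 1 for each probe set on each array. Their software, background correction and scaling are not named in the labels, and the deposited trimmed means were all near 500 (499.9 to 500.0). Probe sets were named from the platform annotation where it gave 1 gene symbol, and 308 with several symbols were left out. Arrays were scaled linearly to the mean of the 3 array medians, log2 shifts of 0.06 (water), 0.04 (35 mg/kg) and -0.09 (70 mg/kg). The floor was the 40th percentile of the scaled values of all 3 arrays. Log2 differences of probe sets above the floor on both arrays were reduced to their median per gene, and a gene was counted when it reached 1. For genes above the floor on 1 array only, the bright value over the floor is a lower bound. No test was made, since each group has 1 array.

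The comparison, its 42 function lists and 15 marker lists were chosen with earlier results of these data known. Genes were named by rule: the 15 largest differences each way among genes with all of at least 2 probe sets past 2-fold, the 12 largest each way with 1 probe set, up to 6 per list, 24 fixed genes of allylamine metabolism, oxidative defence and the arterial wall, the 8 largest bounds each way and the 8 widest ranges between probe sets. Of those with 1 probe set, not all are given. Rxrg, Cyp2c11, Gabrb2, Des, Lyz2, Csf1r, Itgam, S100a8 and S100a9 lie outside the rule and were chosen after their values were seen. The calculation was tested on simulated data, in which only bright genes were changed and all probe sets of a gene changed alike. The simulated errors were smaller than the spread between probe sets seen here. The simulation therefore checks the arithmetic and not how reliable the calls are. Alternatives changed the scaling, the floor, the arrays behind them and the probe sets used. Python 3.11.15, numpy 2.4.6, pandas 2.3.3 and matplotlib 3.10.9 were used. Promoters came from RefSeq, and Fdft1 has no entry.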

Additional observations from a re-analysis of the deposited data

Results flagged for a closer look

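The spike-in probe sets, which stand outside the comparison of aortic genes, carried more signal on the 35 mg/kg array than on the control array, by a median ratio of 3.81 over 9 probe sets (2.32 to 4.47). They measure bacterial and phage transcripts added during preparation, and the aortic probe sets had a common median after scaling. The part of this difference in the results was not tested.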

How the results depend on the processing

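With the values as deposited, quantile normalization, a common 2% trimmed mean, or scaling and floor from the control and 35 mg/kg arrays alone, the counts of genes past 2-fold ranged from 418 to 443 higher and from 409 to 430 lower. Under these 4 settings no gene at least 2-fold in one direction was at least 2-fold in the other. The floor moved the counts, since it sets how many genes are tested. When the floor was set at the 5th, 55th or 75th percentile, the last chosen after seeing the data, 852, 268 and 132 genes were higher and 982, 282 and 137 lower, of 4414, 1859 and 955 measured. Genes with every probe set at least 2-fold higher numbered 56, 32, 11 and 2 as the floor was taken from the 5th to the 25th, 55th and 75th percentile, 11 with 1 probe set per accession and 2 without less specific probe sets (those with suffixes for shared or alternative probes, an alternative chosen after seeing the data). Those lower numbered 52 and 32 for a floor at the 5th or 25th percentile, 4 at the 75th, 9 with 1 probe set per accession and 3 without less specific probe sets. With 1 probe set per accession, or without less specific ones, fewer genes have at least 2 probe sets (382 and 114, against 562).

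Of 460 list medians under these alternatives, 411 moved by less than the pooled SD between probe sets of one gene divided by the square root of the number of genes, 23 moved further with the same sign and 26 moved further to the opposite sign, and the cause was not tested. With a floor at the 5th percentile, medians were 0.035 for calcium handling, -0.21 for growth factors, 0.13 for Notch and Wnt, -0.62 for collagens, 0.20 for glutathione, 0.000119 for superoxide and peroxide enzymes, 0.43 for P450 enzymes, 0.18 for sterol synthesis, -0.19 for fatty acid synthesis and 0.65 for endothelial function. At the 25th they were -0.19 for growth factors, -0.57 for collagens, 0.040 for glutathione, 0.61 for P450 enzymes and 0.38 for endothelial function. At the 55th they were 0.076 for calcium handling, 0.23 for calcium and sodium channels, -0.14 for growth factors, 0.28 for TGF-beta, -0.30 for collagens, 0.58 for superoxide and peroxide enzymes, 0.42 for P450 enzymes, 0.49 for apoptosis and -0.18 for the cell cycle. At the 75th they were 0.011 for the contractile apparatus, -0.62 for calcium handling, -0.20 for potassium channels, -0.93 for G proteins, -0.31 for Notch and Wnt, -0.71 for collagens, -0.36 for the cytoskeleton, -0.20 for the proteasome, 0.49 for apoptosis, 0.52 for cytokines and -0.29 for histocompatibility. With the brightest probe set per gene they were -0.088 for potassium channels and 0.58 for superoxide and peroxide enzymes. With 1 probe set per accession they were 0.32 for immediate early genes and 0.14 for vesicle traffic. Without less specific probe sets they were -0.98 for calcium and sodium channels, 0.022 for Notch and Wnt, -0.66 for glutathione, -0.0195 for the respiratory chain, -0.12 for translation factors, -0.26 for the proteasome, -0.44 for immediate early genes, 0.16 for nuclear receptors, 0.61 for histocompatibility and 0.29 for vesicle traffic.

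Of 292 named genes, 20 at least 2-fold changed sign under an alternative, where another floor or another choice of probe sets changed which of their probe sets entered. With a floor at the 5th percentile these were Acvr2b (1.54), Akr7a2 (0.18), Atp2b1 (-0.51), Gnb1 (-1.76), Gpam (1.09), Grk6 (0.39), Gsk3b (-0.22), Hgf (-0.077), Itpr1 (0.035), Lss (-0.91), Map2k1 (0.16), Myh7 (1.00), Nppa (-0.29), Ppp3r1 (-0.36), Prkaca (0.18), Psma7 (0.68), Scn8a (0.95) and Slc2a1 (-0.30). At the 25th they were Akr7a2 (0.18), Gpam (0.28), Grk6 (0.39), Gsk3b (-0.22), Itpr1 (0.51), Lss (-0.25), Myh11 (0.45), Ppp3r1 (-0.36) and Prkaca (0.18). Drd3 was at -1.13 when the floor was at the 55th or 75th percentile, with its brightest probe set and without less specific probe sets. No paired analysis was possible because each group has 1 array. The dim end of the arrays limits the rest: 992 genes lay below the floor on both; precision is limited by there being 1 array per group.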
